A study of Mus musculus with 4 samples.

Results

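The intervals described here are the accessible regions of mouse chromosome 8 (build mm10) outside the domain around Sall1, in sorted brain parenchymal macrophages. They were all entries of the authors' merged ATAC-seq peak list on that chromosome except those touching the stretch from 88.9 to 89.5 Mb. This gave 3620 of the 74695 merged intervals, and the domain itself held 33. Of the 3620, 74 were in the authors' list of peaks called for YSM against MDM, 8 were in the list called for MDM, and 3538 were in neither. Over all merged intervals, 1.48% were in the YSM list and 0.145% in the MDM list. The chromosome was chosen by its share of YSM-listed peaks in these same data, so shares are given as descriptions, without a test.

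The 4 libraries were labelled MDM1, MDM2, YSM1 and YSM2, giving 2 groups of 2. MDM was taken to stand for monocyte-derived macrophages, as in the title of the series, and YSM is an abbreviation left unexplained in the labels. Both groups carried the genotype label Ms4a3-Ai9 and the treatment label DR-3x, which the labels do not explain, so neither label separates the groups. Ms4a3 is active in the bone marrow progenitors of monocytes and granulocytes, and Ai9 encodes a red fluorescent protein that Cre switches on, so that the pair is used to mark cells of monocyte descent. The labels give no age, no gate that separated MDM from YSM, and no animal or pool for any library. The lists hold no value per library, so no spread between replicates can be given, and the depth per library was not analysed here. Each of the 7 macrophage markers examined (Csf1r, Spi1, Aif1, Cx3cr1, Itgam, Fcgr1 and Ptprc) had merged intervals, 58 in all and 0 of them listed, and neither neutrophil marker (S100a8, Ly6g) had any. Markers of monocyte-derived cells (Ccr2, Ms4a7, Lyz2 and Plac8) had 27 merged intervals, with 0 listed. Markers of neurons, astrocytes, oligodendrocytes, endothelium and lymphocytes also had merged intervals at 11 of 13 genes, 52 in all, of which 2, both at oligodendrocyte markers, were YSM-listed, so a merged interval does not by itself show which cell type it came from.

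ATAC-seq marks DNA that the Tn5 transposase can reach, mostly promoters and enhancers. Enhancers often lie far from the gene they act on, in introns or between genes, and several can be strung along a gene-poor stretch beside a developmental regulator. Sall1, a zinc-finger transcription factor needed for microglial identity, is such a regulator on chromosome 8.

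Listed intervals rarely lay at gene starts, and 4 of them did. They overlapped RefSeq promoter windows (250 bases before to 50 after a gene start, build GRCm38.p6, the assembly of mm10) of Arhgef18, Efnb2, Nr3c2 and Adgrg1, and all 4 were YSM-listed. Arhgef18 encodes an exchange factor for small GTPases, Efnb2 the membrane ligand ephrin-B2, Nr3c2 the mineralocorticoid receptor and Adgrg1 the adhesion receptor GPR56, a microglial gene. The 4 windows are shown because they are the listed sites with a known gene start. Capitals mark matches, on either strand, to 8 motifs searched: GAGGAAGT (PU.1), TGANTCA (AP-1), TGCTGAC (MAF), TTGCNNAA (C/EBP), TGTGGT (RUNX), GGGNGGG (KLF and SP), and the IRF and MEF2 motifs.
Arhgef18, chr8:3392758-3393057, plus strand: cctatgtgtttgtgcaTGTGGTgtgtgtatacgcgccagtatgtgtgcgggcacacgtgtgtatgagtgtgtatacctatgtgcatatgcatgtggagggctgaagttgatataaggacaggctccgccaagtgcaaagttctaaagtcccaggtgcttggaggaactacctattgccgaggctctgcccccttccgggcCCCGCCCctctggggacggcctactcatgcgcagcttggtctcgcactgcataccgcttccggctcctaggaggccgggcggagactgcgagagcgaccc
Efnb2, chr8:8661193-8661492, minus strand: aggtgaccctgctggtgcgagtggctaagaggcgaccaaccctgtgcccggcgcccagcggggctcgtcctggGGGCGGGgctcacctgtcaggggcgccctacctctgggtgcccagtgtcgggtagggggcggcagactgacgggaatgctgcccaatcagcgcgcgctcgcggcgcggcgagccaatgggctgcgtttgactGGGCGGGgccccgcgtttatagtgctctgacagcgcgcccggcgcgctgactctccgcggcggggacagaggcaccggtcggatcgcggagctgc
Nr3c2, chr8:76902080-76902379, plus strand: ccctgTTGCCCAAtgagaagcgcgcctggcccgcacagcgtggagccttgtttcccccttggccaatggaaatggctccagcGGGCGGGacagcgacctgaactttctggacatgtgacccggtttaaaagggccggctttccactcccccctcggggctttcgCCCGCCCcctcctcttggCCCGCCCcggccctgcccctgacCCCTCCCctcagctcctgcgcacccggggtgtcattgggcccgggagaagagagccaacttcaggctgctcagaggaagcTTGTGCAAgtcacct
Adgrg1, chr8:94984149-94984448, plus strand: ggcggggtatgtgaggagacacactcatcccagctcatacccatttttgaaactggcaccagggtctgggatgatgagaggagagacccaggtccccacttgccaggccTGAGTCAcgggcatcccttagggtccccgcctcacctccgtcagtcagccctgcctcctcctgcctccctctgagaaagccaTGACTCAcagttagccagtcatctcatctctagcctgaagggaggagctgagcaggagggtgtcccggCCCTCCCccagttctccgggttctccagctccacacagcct

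The GGGNGGG motif was in all 4 windows and in 48.1% of the 32851 promoter windows of the genome. The Adgrg1 window was the 1 with AP-1 letters, which 7.81% of all windows hold, the Nr3c2 window the 1 with C/EBP letters (10.8%) and the Arhgef18 window the 1 with RUNX letters (16.8%). PU.1, MAF, IRF and MEF2 letters were in none of the 4, and in 3.20%, 4.67%, 3.44% and 3.69% of all windows. Motifs were counted separately, so AP-1 and MAF matches may share bases. The listed intervals covered 278, 210, 229 and 118 of the 300 bases at Arhgef18, Efnb2, Nr3c2 and Adgrg1. Some marked matches lay outside them, so the counts are for windows and not for listed intervals. Outside were the RUNX match at Arhgef18, the only GGGNGGG match and the later AP-1 match at Adgrg1, and the later C/EBP match at Nr3c2. The later GGGNGGG match at Efnb2 crossed the edge of its interval. Other matches lay inside. The 4 listed intervals are described next. They combined 6, 5, 4 and 4 subpeaks, the number of library-level peaks merged into an interval. An interval of 3 or fewer subpeaks was therefore without a call in 1 or more of the 4 libraries. An interval of 4 or more could have a call in every library, although a single library can give several.

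Promoters were seldom YSM-listed, here and on the other chromosomes. Of 1433 promoter windows on chromosome 8 outside the domain, 558 (38.9%) overlapped a merged interval, and 4 of these 558 (0.717%, 95% exact binomial interval 0.196 to 1.83) overlapped a YSM-listed one. On the other 18 autosomes 87 of 11224 did (0.775%, 0.621 to 0.955). No window on chromosome 8 overlapped an MDM-listed interval (0 of 558), and on the other autosomes 4 of 11224 did. The RefSeq promoter table is not complete, and genes without a window were left out of these counts. All exact intervals in the text cover counting error only, and take neighbouring intervals as independent.

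The YSM-listed share of chromosome 8 stayed above that of the other autosomes when the Sall1 domain was left out. It was 2.04% (74 of 3620, 95% exact interval 1.61 to 2.56), against 1.44% on the other 18 autosomes pooled (998 of 69222, 1.35 to 1.53) and 1.48% over all merged intervals (1104 of 74695). The ratio to the other autosomes was 1.42, and with the domain kept it was 1.82 (96 of 3653 intervals, 2.63%, 2.13 to 3.20). The domain thus held 22.9% of the chromosome's YSM-listed intervals. Among the 19 autosomes chromosome 8 ranked 3 by this share with the domain left out, after chromosome 14 (2.92%) and chromosome 18 (2.09%). Chromosome 6 followed at 2.02%, and the shares of 5 other autosomes lay inside the interval of chromosome 8. The other autosomes ran from 0.807% (chromosome 19) to 2.92%, with a median of 1.41%.

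**Figure D1:**
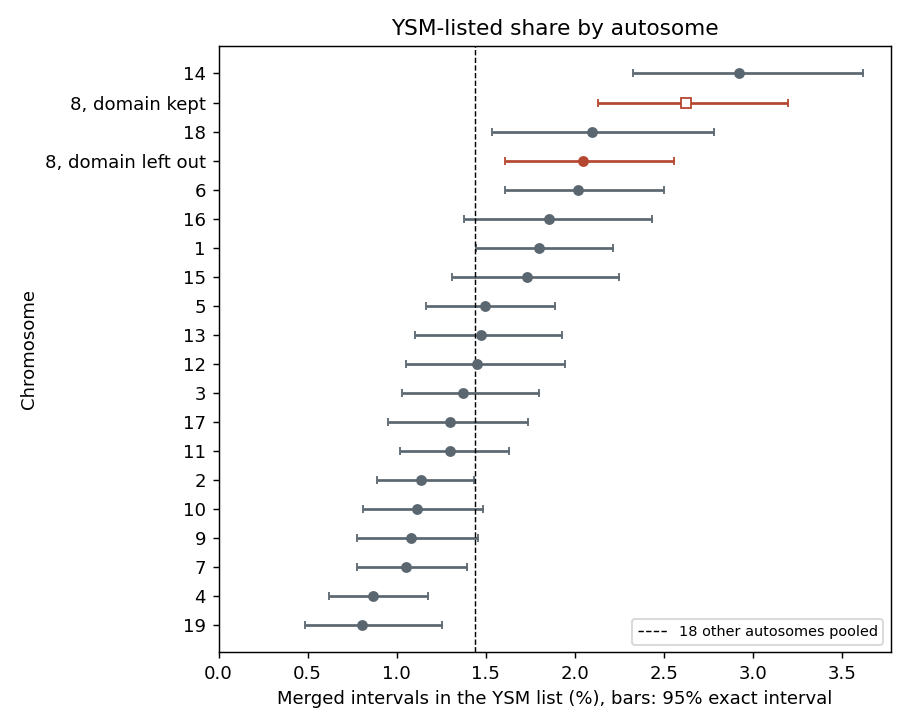
Share of merged intervals in the authors' YSM list (x axis, percent) for each autosome (y axis). Points are shares, bars are 95% exact intervals, and the dashed line is the 18 other autosomes pooled. Chromosome 8 without the Sall1 domain (filled red, 2.04%) sits beside chromosomes 18 and 6, and with the domain (open square) it is at 2.63%.

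Every other autosome also had a densest place, and a further comparison took one away from each. For it the Sall1 domain was not left out beforehand. Without the 600000 bp window that held the most YSM-listed intervals on each autosome, the share was 2.02% on chromosome 8 and 1.27% on the others, a ratio of 1.59 and rank 2. The densest windows of the other autosomes held 4 to 12 YSM-listed intervals, and that of chromosome 8, at 89021403 to 89621402, held 23.

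YSM-listed intervals were spread unevenly along the chromosome. Of 130 bins of 1 Mb, 99 held a merged interval outside the domain, with a median of 29 and at most 114. YSM-listed intervals fell in 35 of these bins, and 64 had merged intervals but none on the YSM list. The 35 comprised 17 bins with 1, 10 bins with 2 and 8 bins with 3 or more. Those 8 bins held 37 of the 74 YSM-listed intervals among 258 merged ones. Besides the bins from 8 to 9 Mb (11 YSM-listed) and from 89 to 90 Mb (5 YSM-listed), bins with most listed intervals began at 11 Mb (3 YSM-listed and 2 MDM-listed of 76), 14 Mb (4 YSM-listed of 33) and 124 Mb (4 of 52). Others began at 24 Mb (3 YSM-listed of 21), 109 Mb (3 of 36), 83 Mb (2 YSM-listed and 1 MDM-listed of 89) and 3 Mb (2 YSM-listed of 42), the last tied with other bins of 2. The 10 bins richest in merged intervals held 11 YSM-listed of 971 (1.13%), and the bin from 70 to 71 Mb, with 102 merged intervals, held 0.

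**Figure D2:**
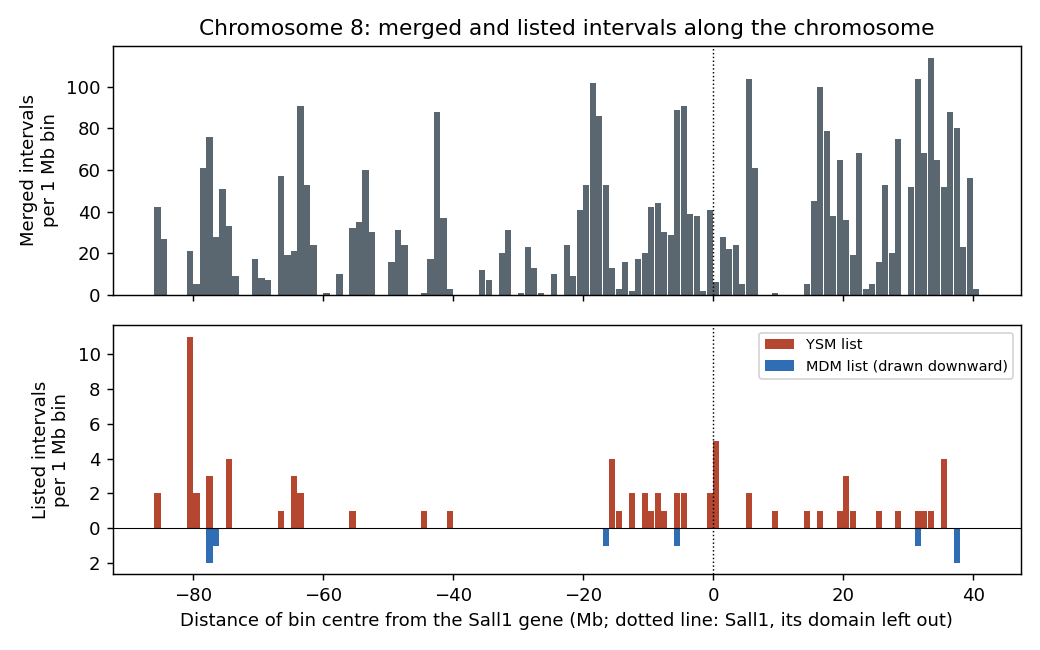
Merged intervals (top) and listed intervals (bottom, YSM upward and MDM downward) in 1 Mb bins of chromosome 8, against the distance of the bin from Sall1 in Mb. The dotted line marks Sall1, whose domain was left out. The tallest YSM bar, with 11 listed of 21 merged intervals, lies at -80.5 Mb, and the tallest bars of merged intervals have 0 to 2 YSM-listed ones.

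In 10 Mb stretches the share was highest at the start of the chromosome. Up to 10 Mb, 15 of 95 intervals were YSM-listed (15.8%, 9.12 to 24.7), and 11 of the 15 were in the single bin from 8 to 9 Mb. From 70 to 80 Mb 10 of 354 were (2.82%, 1.36 to 5.13), and from 80 to 90 Mb, outside the domain, 14 of 409 (3.42%, 1.88 to 5.68). Of these 14, 5 were in the bin from 89 to 90 Mb. The distal end, from 120 to 130 Mb, had the most merged intervals and few listed ones, 7 of 653 (1.07%). From 50 to 70 Mb there were none, 0 of 71 and 0 of 174.

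The longest stretch without a YSM-listed interval began at 48012004 and held 488 merged intervals at 158 genes, of which 1, at Klf2, was MDM-listed. It was picked for holding no YSM-listed interval, so that 0 is no measure of its share. Runs as long were found elsewhere. The longest run of consecutive merged intervals without a YSM-listed one was 794 on chromosome 4, 714 on chromosome 2, 672 on chromosome 6, 564 on chromosome 11 and 551 on chromosome 19.

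The bin with the most YSM-listed intervals was a gene-poor one around Efnb2 and Arglu1. Between 8000001 and 9000000, 11 of 21 merged intervals were YSM-listed (52.4%) and 0 were MDM-listed. One of the 11 was the Efnb2 promoter interval, at 8661283 to 8661524, whose window is printed above. The other 10 had no protein-coding gene within 100000 bp. Efnb2 spans 8617235 to 8661242, on the minus strand, and its neighbour Arglu1, a gene for a splicing-associated protein, 8666297 to 8690550.

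On the low-coordinate side of Efnb2, beyond its 3′ end, 3 YSM-listed intervals began at 8239512, 8334637 and 8452199. Their centres were 377524, 282491 and 164932 bp from the gene. The last of them lay inside the noncoding RNA gene Gm31135. On the other side, past Arglu1, 8 YSM-listed intervals formed a cluster of 56283 bp from 8952215 to 9008497, in which 8 of 11 merged intervals were listed. The next coding gene beyond it, Fam155a, which encodes a subunit of a sodium leak channel, lay 197609 to 253675 bp away. None of these 8 combined more than 3 subpeaks, so at least 1 library had no call at each. A further YSM-listed interval, at 9185376 to 9185588, was 20524 bp from Fam155a.

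YSM-listed intervals also lay beyond the upper edge of the Sall1 domain. Inside it, the first and last YSM-listed intervals were at 88914077 to 88914277 and 89396629 to 89396855, 14077 and 103145 bp from the nearer border. Beyond the upper border, 5 of the 6 merged intervals up to 90000000 were YSM-listed, the nearest 15545 bp away, at 89515545 to 89515776. Between it and the last one inside the domain no interval was YSM-listed, and a link to the domain was not tested. The others beyond the border were at 89569544 to 89569770, 89571733 to 89571954, 89571991 to 89572204 and 89641367 to 89641567. All 5 lay 471498 to 597305 bp from Sall1, which was nearer than Tox3 for each of them, and combined 1 or 2 subpeaks. Below the lower border, 2 of 17 merged intervals from 88.4 Mb on were YSM-listed. Both were inside Nkd1, a gene for an inhibitor of Wnt signalling, and the nearer one lay 319008 bp from the border.

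These 2 bins, from 8 to 9 Mb and from 89 to 90 Mb, chosen after their values were seen, carried most of the difference from the other autosomes. They held 16 of the 74 YSM-listed intervals among 27 of the 3620 merged ones. At the share of the other autosomes, 52.2 YSM-listed intervals would stand in place of the 74, and without the 2 bins 51.8 in place of 58. Without the first bin the share of chromosome 8 was 1.75% (63 of 3599, 1.35 to 2.23), a ratio of 1.21 and rank 6, and this interval already included the 1.44% of the other autosomes. Without both it was 1.61% (58 of 3593, 1.23 to 2.08), a ratio of 1.12 and rank 7. The other autosomes kept their own dense bins in this comparison.

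The share was higher in sparse bins too, in good part through the same 2 bins. Bins were classed without the intervals of the Sall1 domain, so the bin from 89 to 90 Mb, with 6 left, counted among the sparsest. With the domain kept, a 600000 bp window inside that bin alone held 33 merged intervals. In bins of 1 to 10 merged intervals, 14 of 107 on chromosome 8 were YSM-listed (13.1%, 7.34 to 21.0), against 6.25% on the other autosomes (5.25 to 7.39). These 14 include the 5 of that bin. In bins of 11 to 30 it was 3.75% (2.39 to 5.58) against 2.28% (2.00 to 2.58), in bins of 31 to 60 it was 1.75% against 1.35%, and in bins of over 60 it was 0.969% against 0.953%. The share thus fell with the number of intervals in a bin on chromosome 8 and elsewhere. Without the bins from 8 to 9 and 89 to 90 Mb, the shares in the sparsest and the next class were 8.91% (9 of 101, 4.16 to 16.2) and 2.03% (12 of 592, 1.05 to 3.51). The first interval includes the 6.25% of the other autosomes, and the second share lies below their 2.28%. The sparsest bins held 2.96% of the merged intervals on chromosome 8 and 2.98% elsewhere. With the shares of the other autosomes applied to these same classes, 52.8 YSM-listed intervals would stand in place of 74, a ratio of 1.40.

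**Figure D3:**
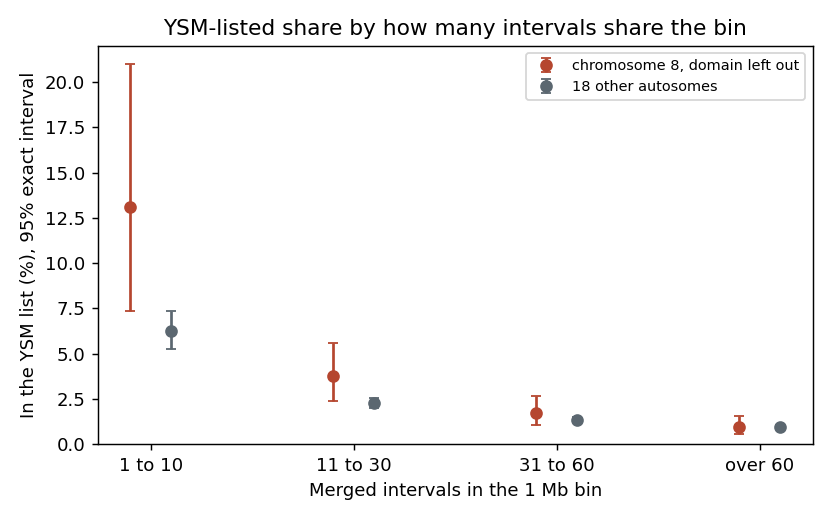
Share of intervals in the YSM list (y axis, percent, bars are 95% exact intervals) by the number of merged intervals in the same 1 Mb bin (x axis), for chromosome 8 without the Sall1 domain (red) and the other 18 autosomes (grey). The bins from 8 to 9 and 89 to 90 Mb are included, the latter classed among the sparsest because its domain intervals were not counted. The gap is widest in the sparsest bins, 13.1% against 6.25%, and in the fullest bins the shares are 0.969% and 0.953%.

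The share also varied with the position relative to genes. Of the 74 YSM-listed intervals, 39 lay inside genes, 30 outside and 5 at a gene edge, within 1000 bp of either end. Outside genes 2.77% of the chromosome 8 intervals were YSM-listed (30 of 1084, 1.88 to 3.93), against 1.41% on other autosomes, and 1.41% (15 of 1064) without the same 2 bins. Beyond 100000 bp of any protein-coding gene the share was 9.05% (19 of 210, 5.54 to 13.8) against 3.07%, and 2.09% (4 of 191, 0.573 to 5.28) without them. Of these 19 intervals, 15 were in the 2 bins. Inside genes the share was 2.33% (1.66 to 3.17) against 1.78%, and at gene edges 0.580% (0.189 to 1.35) against 0.774%.

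YSM-listed intervals were mostly ones with few subpeaks. Of the 74, 38 combined 2 subpeaks, 15 combined 3, 15 combined 4, 4 combined 5 or more and 2 had a single one, with a median of 2 and a maximum of 7. At most 3 subpeaks were in 74.3% of them (55 of 74, 62.8 to 83.8), against 41.2% of the 3538 intervals in neither list. The same held on the other autosomes, at 70.9% and 41.8%. Subpeak number and list membership come from the same reads, and neither is a check on the other.

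By subpeak number, the YSM-listed share was highest among intervals with 2. It was 8.94% there (38 of 425, 6.41 to 12.1) against 5.73% on the other autosomes, and 3.93% (2.21 to 6.39) against 2.48% with 3. With 1 subpeak it was 0.283% against 0.500%, with 4 it was 0.881% against 0.715%, and with 5 or more 0.993% against 0.765%. Without the 2 dense bins the shares with 2 and 3 subpeaks were 6.76% (4.54 to 9.63) and 2.93% (1.47 to 5.17). With 4 or more subpeaks, where every library can have had a call, 19 of 2106 intervals were YSM-listed (0.902%, 0.544 to 1.41) against 0.725%. This interval included the value of the other autosomes, and chromosome 8 ranked 5. YSM-listed intervals had a median width of 240 bp (201 to 572), the same as the 240 bp on other autosomes, and intervals in neither list 234 bp.

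**Figure D4:**
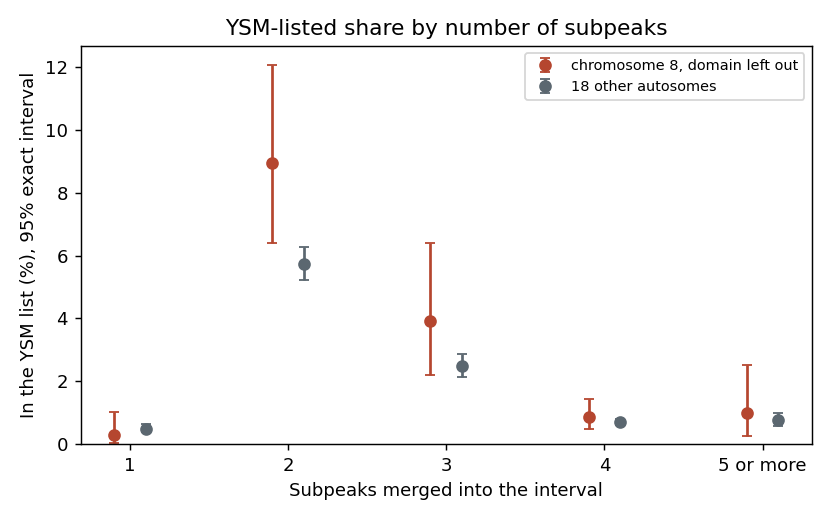
Share of intervals in the YSM list (y axis, percent, bars are 95% exact intervals) by the number of library-level peaks merged into the interval (x axis), for chromosome 8 without the Sall1 domain (red) and the other 18 autosomes (grey). Intervals with 2 subpeaks are highest in both, 8.94% and 5.73%, and those with 1, 4 or more are below 1% in both.

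Of the 74 YSM-listed intervals, 55 (74.3%) had a protein-coding gene within 100000 bp of the centre, and each was assigned to the nearest. That was below the 94.2% of all merged intervals on chromosome 8 outside the domain, and the 90.4% of YSM-listed intervals on the other autosomes. The 55 were at 41 of the 782 genes with a merged interval (5.24%), against 4.34% of genes (608 of 14015) on the other autosomes. Of the 41 genes, 31 held 1 and 10 held 2 or more, 24 in all. The 41 genes had a median length of 76155 bp and 20 of them exceeded 100000 bp (48.8%), against a median of 20237 bp and 60 of 741 (8.10%) for the genes without. A longer gene takes in more of the chromosome, and the part of length in these counts was not tested.

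Among genes with 2 or more, the leading ones were long. Dlgap2, a scaffold gene of the postsynaptic density (14095776 to 14853426), held 4 YSM-listed of 13 merged intervals, all inside the gene, with 2 to 4 subpeaks. Arhgef7, an exchange factor for the small GTPases Rac and Cdc42 (11728001 to 11835219), held 3 of 15 inside the gene. The listed Arhgef7 intervals were at 11743795 to 11744044, 11782060 to 11782395 and 11808089 to 11808408, and the merged interval at its promoter was not listed.

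Nr3c2, Gab1, Nkd1 and Tcim held 2 each. Both Nr3c2 intervals lay near the start of the gene, at 76898956 to 76899193 and 76902069 to 76902308, out of 3 merged intervals assigned to it. The second is the one over the promoter window printed above. Gab1, an adaptor of receptor tyrosine kinases, held 2 of 11, at 80805442 to 80805707 and 80874160 to 80874376, with its promoter interval not listed. Nkd1 held 2 of 5, and Tcim, a small regulator of transcription and immune responses, 2 of 9, both outside the gene at 9421 and 17388 bp.

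The rest with 2 were the calcium channel gene Cacna1a (2 of 17, both inside), the transporter-family gene Slc10a7 (2 of 14, one inside and one 7186 bp away) and 2310022B05Rik (2 of 4). The 2310022B05Rik pair lay within 543 bp, from 124643648 to 124644190. Counting YSM-listed intervals within 50000 bp of each other once left 55 loci, of which 44 were single intervals and 11 held 30 intervals together. Only listed intervals were joined, and merged ones were still counted singly. Loci then came to 1.52% of the number of merged intervals on chromosome 8 and 1.04% on the other autosomes, a ratio of 1.47 and rank 2.

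Genes with 1 YSM-listed interval included Smad1, Adgrg1 and Cd209a. Smad1, a signal transducer of bone morphogenetic proteins, had it inside the gene at 79389309 to 79389571, 9988 bp after the gene start, with 2 subpeaks and out of 18 merged intervals. Cd209a, a C-type lectin gene of myeloid cells, had 1 merged interval, the listed one at 3754366 to 3754574, 5486 bp before its start. At Adgrg1, 1 of 11 merged intervals was listed, at 94984022 to 94984266, centred at -255 bp from one of its gene starts. Jph3, a junctophilin gene, and Cdh8, a cadherin gene, held 1 each. The part of other cells in these intervals was not tested.

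The MDM list held 8 intervals on chromosome 8 (0.221%, 0.0955 to 0.435), against 0.144% on the other autosomes (100 of 69222) and 0.145% over all merged intervals. The ratio was 1.53, the interval included the value of the other autosomes, and chromosome 8 ranked 5. These 8 fell in 6 bins, 3 of which also held YSM-listed intervals. Irs2, the insulin receptor substrate gene, had 2 of its 25 merged intervals listed. They were at 11016149 to 11016582, inside the noncoding RNA gene 9530052E02Rik, and at 11098480 to 11098903. With the strand known, both lay upstream of Irs2, 7436 and 89762 bp before its start, and combined 7 and 6 subpeaks. The merged interval at the Irs2 promoter was not listed. Arhgef7, whose 3 intervals were YSM-listed, starts at 11728001 in the same bin.

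Klf2, a transcription factor that keeps monocytes and lymphocytes quiescent, had 1 of 5 merged intervals on the MDM list. It lay at 72322513 to 72322735, 3562 bp after the gene start and 970 bp past the 3′ end, while the interval at the Klf2 promoter, with 5 subpeaks, was not listed. Gse1, a gene for a coiled-coil protein of corepressor complexes, had 1 of 39, at 120416942 to 120417208. Mcf2l, an exchange factor for small GTPases, had 1 of 8, and Rnf150, a ring finger protein gene, 1 of 33, both inside the gene. The remaining pair, at 126735704 to 126735913 and 126778702 to 126779022, had no coding gene within 100000 bp. The nearest were Irf2bp2, a partner of the interferon regulatory factor IRF2, at 141822 bp from the first, and Tomm20, a mitochondrial import receptor, at 151802 bp from the second. MDM-listed intervals had a median of 4 subpeaks and a median width of 294 bp (210 to 434), and 2 of the 8 had fewer than 4 subpeaks.

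Listed intervals were also counted in 10 lists of chromosome 8 genes made by hand. Counts are to be read against the 2.04% YSM-listed (74 of 3620) and 0.221% MDM-listed (8 of 3620) over all intervals. At these shares lists of this size would hold few listed intervals, so a count of 0 or 1 says little. The 2 lists with MDM-listed intervals had a share of them above 0.221%, resting on 2 intervals in each. Of 22 transcription factor genes of macrophages and blood, 21 had merged intervals, 189 in all, with 1 YSM-listed (0.529%), at Smad1, and 2 MDM-listed, at Klf2 and Gse1. Gse1, a gene for a protein of corepressor complexes, was placed in this list by hand. Irf8, a lineage factor of monocytes and microglia, had 28 merged intervals, Irf2 28 and Maf, a macrophage factor, 15, all with 0 listed. Phagocytosis, lysosome and oxidase genes had 99 merged intervals at 15 of 16 genes and 0 listed. Among them were the scavenger receptor gene Msr1 with 12 and Plcg2, the phospholipase downstream of TREM2, with 21. Innate sensing and interferon genes had 59 at 14 of 14 genes and 0 listed, Nod2 and Tlr3 with 5 each.

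Insulin and growth factor signalling genes had 108 merged intervals at 13 of 13 genes, with 5 YSM-listed (4.63%), at Gab1 (2), Nr3c2 (2) and Efnb2 (1), and 2 MDM-listed, both at Irs2. Nr3c2, a steroid receptor gene (2 of 3 merged intervals), and Efnb2, an ephrin ligand gene (1 of 5), were placed in this list by hand. Without them the 2 Gab1 intervals would be its only YSM-listed ones, so the 4.63% does not stand for insulin and growth factor genes. Chemokine, adhesion receptor and integrin genes had 87 at 11 of 12 genes, 1 of them YSM-listed (1.15%), at Adgrg1. The chemokine gene Cx3cl1 had 5 and the integrin gene Itgb1 8, with 0 listed. Cadherins had 35 at 6 of 8 genes, 1 listed, at Cdh8. The 12 very long genes chosen had 126 at 7 genes, 1 YSM-listed (0.794%), at Wwox. That list left out other long genes with YSM-listed intervals, among them Dlgap2 (4 of 13) and Fam155a (1 of 2). It therefore does not stand for the long genes of the chromosome. Metallothioneins had 12 at 4 of 4 genes and defensins 3 at 1 of 53, with 0 listed, and no merged interval was assigned to the 15 carboxylesterase genes. The lists differ in number of intervals, and no list was tested.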

How the data were processed

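ATAC-seq libraries of 4 samples, 2 labelled MDM and 2 YSM, were processed by the authors with Trimmomatic 0.39, Bowtie2 2.2.5, Picard and HOMER on mm10, per the submitters' processing notes. Tool settings, peak thresholds and any Tn5 shift: not given in the sources used here. Peaks called per library were merged by the authors with HOMER mergePeaks, per the file headers. The deposited lists hold coordinates and the number of subpeaks, with no count or signal per library. Lists named for DESeq2 give the authors' differential peaks without fold or p-value. A listed peak was taken, from its list's name, as more accessible in that group.

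Intervals, written 1-based, were binned by their centre (1 Mb), matched to the lists by identical coordinates, and assigned to the nearest protein-coding gene of the RefSeq table (GRCm38.p6) within 100000 bp. Promoter sequences came from RefSeq (GRCm38.p6). Shares have 95% exact Clopper-Pearson intervals (scipy 1.17.1). The assignment and interval code was tested on simulated data. Named genes were those with at least 2 YSM-listed intervals, those with an MDM-listed one, the 10 bins with most listed intervals, and members of gene lists that held a listed one. Other genes (Irf8, Irf2, Maf, Msr1, Plcg2, Nod2, Tlr3, Cx3cl1, Itgb1, Cd209a and Jph3) were chosen after their values were seen. Results at 1 of the named genes, its bin, 1 marker list and 1 other marker gene are not reported here. The members and lists were chosen with earlier results of these data known. No peak sequence was printed, since no genome was used.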

Additional observations from a re-analysis of the deposited data

How the results depend on the processing

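Over 7 results, 47 values were obtained under an alternative. Of these, 43 stayed inside the 95% exact interval of the first value or, for counts, within 1.5 times of it, and 4 moved. None changed direction. The tally does not measure robustness, since some values could hardly move. Matching by an overlap of at least 1 bp gave the first shares and ratios again. MDM ratios were judged against a wide interval, 0.661 to 3.01, resting on 8 intervals. The YSM ratio of 1.12, without the bins from 8 to 9 and 89 to 90 Mb, lay just above its lower limit of 1.116. The 4 values that moved are given next. The YSM-listed share was 0.902% with at least 4 subpeaks, 2.63% with the Sall1 domain kept and 1.52% with listed peaks within 50000 bp counted once over the same unjoined merged intervals. The ratio to the other autosomes was 1.82 with the domain kept. That ratio was above 1 under all 12 alternatives (1.12 to 1.82), of which 2, without the bins from 8 to 9 and 89 to 90 Mb and with a gene within 100000 bp (1.18), were chosen after seeing the data. The exact interval of chromosome 8 included the value of the other autosomes with at least 4 subpeaks, without the bin from 8 to 9 Mb, without both bins, and with a gene within 100000 bp (1.61%, 1.22 to 2.09, against 1.36%, rank 7). With the wider domain of 88.4 to 90 Mb left out it was 1.29 (1.86%, 67 of 3597, 1.45 to 2.36). The MDM ratio ranged from 1.17 to 1.55 and rests on at most 8 intervals. It was 1.17 without the bin that holds both Irs2 intervals.

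No paired analysis was possible because the deposited lists carry no value per library. For the same reason leaving out a library was not run, and no spread between replicates is given.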
